A study of Mus musculus with 2 samples.

Results

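The genes described here carry the symbols of mitochondrial ribosomal proteins. The symbols take in Mrps36, now placed outside the ribosome, and leave out ribosomal proteins of other names. These genes are 78 of the 21779 protein-coding mouse genes, spread over 17 chromosomes. Of the 78 genes, 49 have large subunit symbols (Mrpl) and 29 have small subunit symbols (Mrps). They were chosen by symbol, Mrpl or Mrps followed by a digit, in the RefSeq gene table of build GRCm38.p6; the rule uses no measured value, although earlier results of these data were known when the group was chosen. Sap130 belongs to the Sin3 corepressor, which carries histone deacetylases. Where it binds had been mapped by chromatin immunoprecipitation and sequencing (ChIP-seq) in E12.5 embryonic hearts of the C57BL/6 strain. The series holds 1 ChIP library, for which 2 µg of rabbit anti-Sap130 was used, and 1 input library made with no antibody from the same strain, stage and tissue. The labels name no mutant, treatment or second ChIP, so no value has a replicate error and no test between conditions was possible. The deposited list gives each peak summit as 1 base with a score, a p or q value on the −log10 scale from the authors' peak calling against input. The score ranks summits within this list and is no fold over input.

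Mitochondrial ribosomes translate the few messenger RNAs of the mitochondrial genome, which encode core subunits of the respiratory chain and ATP synthase. Their RNAs come from the mitochondrial genome, while every protein is encoded in the nucleus, made in the cytoplasm and imported. Many of these proteins descend from bacterial ribosomal proteins and others are found only in mitochondrial ribosomes; heart muscle depends heavily on the machinery they make. Whole hearts mix muscle with other cells, so a summit in all cells and a summit in a part of them cannot be told apart, and a list of summits does not measure expression, so it gives no check of the labelled tissue.

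A summit lay inside the gene or within 1000 bp of a boundary at 78 of 78 of these genes (100%, exact 95% interval 95.4% to 100%), against 11972 of 21779 protein-coding genes (55.0%). The interval covers the counting of genes only. With a summit required within 1000 bp of a gene's first or last base, 70 of 78 genes were marked (89.7%), against 48.4% of all protein-coding genes. The remaining 8 genes were Mrpl4, Mrpl18, Mrpl22, Mrpl24, Mrpl45, Mrps2, Mrps23 and Mrps31, each with a summit further inside. Transcript starts were listed for 69 of the 78 genes, and all 69 had a summit within 1000 bp of one, against 52.2% of the 17492 protein-coding genes with a listed start. Mrps23 shows how the measures differ: its summit of highest score lay 6993 bp from the nearest boundary but 126 bp downstream of its listed start. A summit within 1000 bp of a start can also belong to a neighbour's start. At 17 of the 69 genes (24.6%) the summit of highest score lay upstream, against 17.4% of all genes with a summit at a start. Most of these 17 shared it with a neighbour on the opposite strand, as described below. Among the 6 annotated Mrpl and Mrps pseudogenes, 0 had a summit, against 87 of all 10510 annotated pseudogenes (0.828%), and the nearest one to any of them lay 12602 bp away, at Mrpl23-ps1.

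The promoters below are those of genes on which the later comparisons turn, taken from the RefSeq promoter table of build GRCm38.p6. Each runs 5′ to 3′ on the gene's own strand, from 250 bases before the listed start to 50 after it. Capitals mark matches, on either strand, to any of 10 short motifs of promoter-binding factors described further on. Mrpl12 had the highest score and none of the motifs, and Mrpl45 had the lowest score and likewise none. Mrpl43 and Mrps7 share their summits with a neighbour on the opposite strand. Mrps18a, Mrps27 and Mrps7 hold a YY1 core just after the start, and Mrpl22 and Mrpl32 hold NRF1 cores. Mrps11 shares its start region with another gene of the group, Mrpl46.
Mrpl12 (chr11:120484387-120484686, plus strand): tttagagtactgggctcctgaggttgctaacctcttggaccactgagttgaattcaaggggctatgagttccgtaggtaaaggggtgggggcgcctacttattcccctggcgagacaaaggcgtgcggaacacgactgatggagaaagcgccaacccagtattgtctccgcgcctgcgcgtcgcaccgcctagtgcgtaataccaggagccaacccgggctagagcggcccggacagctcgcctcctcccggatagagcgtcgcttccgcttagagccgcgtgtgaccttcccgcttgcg
Mrpl45 (chr11:97315466-97315765, plus strand): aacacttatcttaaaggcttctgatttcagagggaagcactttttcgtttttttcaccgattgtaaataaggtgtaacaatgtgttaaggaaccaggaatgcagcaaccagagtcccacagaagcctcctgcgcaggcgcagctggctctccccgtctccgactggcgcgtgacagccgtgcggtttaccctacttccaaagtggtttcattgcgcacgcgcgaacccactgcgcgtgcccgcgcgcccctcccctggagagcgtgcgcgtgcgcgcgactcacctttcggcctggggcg
Mrpl43 (chr19:45006393-45006692, minus strand): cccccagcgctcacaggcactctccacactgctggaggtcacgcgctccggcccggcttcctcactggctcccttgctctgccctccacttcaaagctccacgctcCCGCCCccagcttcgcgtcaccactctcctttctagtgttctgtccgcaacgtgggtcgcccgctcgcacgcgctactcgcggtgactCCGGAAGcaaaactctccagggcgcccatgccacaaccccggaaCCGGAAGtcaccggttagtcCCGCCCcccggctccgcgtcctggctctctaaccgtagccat
Mrps7 (chr11:115603890-115604189, plus strand): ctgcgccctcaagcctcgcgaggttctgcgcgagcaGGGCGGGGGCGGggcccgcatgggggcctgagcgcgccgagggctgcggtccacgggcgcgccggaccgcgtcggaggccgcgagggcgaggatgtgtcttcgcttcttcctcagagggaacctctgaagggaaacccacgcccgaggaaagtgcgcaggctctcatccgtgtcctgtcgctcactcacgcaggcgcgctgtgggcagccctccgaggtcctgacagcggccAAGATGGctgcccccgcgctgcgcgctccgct
Mrps18a (chr17:46110754-46111053, plus strand): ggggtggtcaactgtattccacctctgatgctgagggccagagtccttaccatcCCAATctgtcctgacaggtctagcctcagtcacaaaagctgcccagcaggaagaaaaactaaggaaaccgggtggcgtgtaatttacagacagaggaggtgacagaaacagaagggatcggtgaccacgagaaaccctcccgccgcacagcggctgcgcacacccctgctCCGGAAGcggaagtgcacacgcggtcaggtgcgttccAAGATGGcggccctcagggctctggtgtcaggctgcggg
Mrps27 (chr13:99344536-99344835, plus strand): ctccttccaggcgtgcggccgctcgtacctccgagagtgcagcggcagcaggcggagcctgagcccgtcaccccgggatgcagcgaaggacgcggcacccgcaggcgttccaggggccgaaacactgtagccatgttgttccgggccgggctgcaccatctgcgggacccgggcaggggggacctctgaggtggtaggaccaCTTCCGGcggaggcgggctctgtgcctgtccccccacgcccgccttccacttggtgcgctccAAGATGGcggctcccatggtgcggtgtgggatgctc
Mrpl22 (chr11:58171414-58171713, plus strand): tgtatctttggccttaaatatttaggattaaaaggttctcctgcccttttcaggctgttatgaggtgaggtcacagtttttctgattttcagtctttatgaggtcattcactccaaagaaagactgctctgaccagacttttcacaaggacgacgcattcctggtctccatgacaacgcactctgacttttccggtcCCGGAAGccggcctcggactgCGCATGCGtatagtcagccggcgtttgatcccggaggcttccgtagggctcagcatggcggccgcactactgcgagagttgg
Mrpl32 (chr13:14612988-14613287, minus strand): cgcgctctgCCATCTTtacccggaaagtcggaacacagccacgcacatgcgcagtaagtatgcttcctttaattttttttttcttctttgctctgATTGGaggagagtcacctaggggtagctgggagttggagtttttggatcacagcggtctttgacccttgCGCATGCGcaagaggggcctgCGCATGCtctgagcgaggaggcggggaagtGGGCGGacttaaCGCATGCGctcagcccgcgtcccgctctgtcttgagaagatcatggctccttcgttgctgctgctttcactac
Mrps11 (chr7:78782881-78783180, plus strand): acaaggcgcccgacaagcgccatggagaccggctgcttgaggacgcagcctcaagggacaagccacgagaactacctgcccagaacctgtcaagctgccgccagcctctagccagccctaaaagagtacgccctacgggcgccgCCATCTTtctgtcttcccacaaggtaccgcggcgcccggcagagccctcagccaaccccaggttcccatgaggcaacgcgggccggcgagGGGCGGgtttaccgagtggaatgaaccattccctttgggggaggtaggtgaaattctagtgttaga

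**Figure D1:**
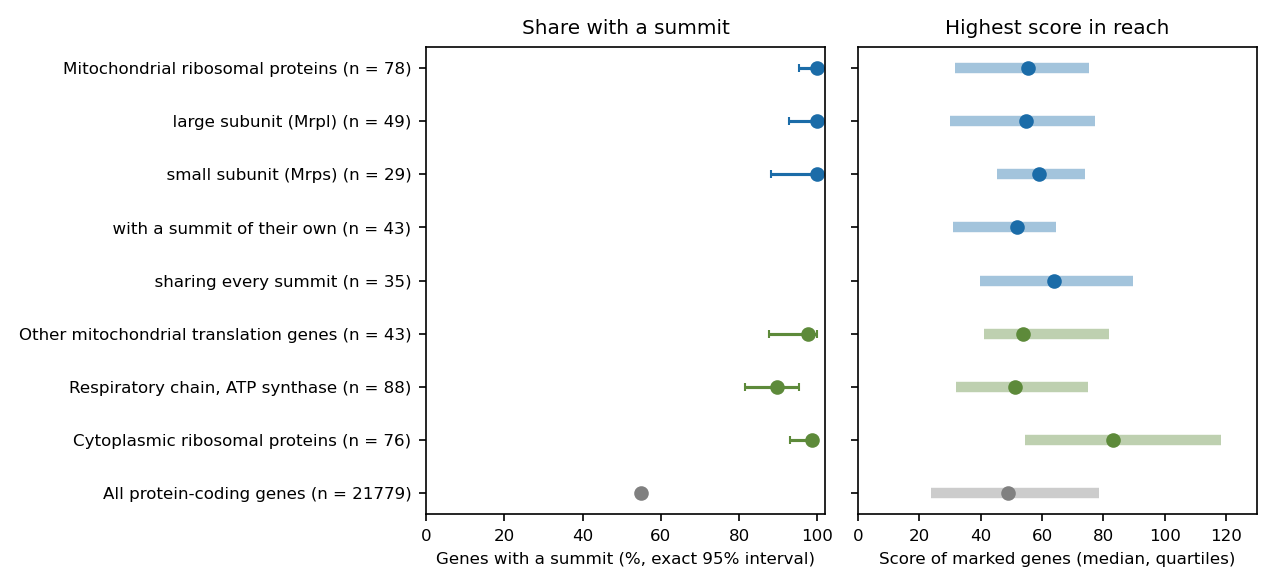
Left, the share of genes with a Sap130 summit inside or within 1000 bp (percent, bars are exact 95% intervals for the counting of genes). Right, the highest summit score in reach of each marked gene (−log10 of p or q, dots are medians, bars the quartiles); all 78 mitochondrial ribosomal protein genes had a summit, and their median score of 55.3 lay close to the 48.9 of all marked protein-coding genes.

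The scores lay around the middle of those of all marked genes, with fewer at the low end. The highest score in reach had a median of 55.3 over the 78 genes (quartiles 31.7 and 75.4, range 6.05 to 162) and a median of 48.9 over all marked protein-coding genes (quartiles 23.9 and 78.6). Of the 78 genes, 47 reached the median of all marked genes, 16 stood above their upper quartile and 12 below their lower one. The exact 95% interval of the group's median, 46.9 to 63.1, takes in the median of all marked genes. This interval covers the counting of genes only, in 1 library, and does not show that the scores are the same. The share of marked genes thus differed far more from that of all genes than the scores did. The rank correlation of score with gene length was -0.179 over the 78 genes, given as a description since all points come from 1 library.

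Mrpl12, which encodes the protein of the flexible stalk where translation factors dock, had the highest score, 162, at a summit 162 bp downstream of its start. That score stood at percentile 97.9 of all marked genes. The same summit is in reach of the end of Hgs, an endosomal sorting gene on the same strand whose own highest score was 211. Mrpl23, which encodes a protein near the exit of the peptide tunnel, came next with 154, at a summit in reach of no other gene, 299 bp downstream of its start. Mrps6 scored 152 at a summit 136 bp downstream of its start, and the start of the inositol transporter gene Slc5a3 lies 14 bp away on the same strand. Of these 3 genes, only Mrpl23 had a summit of its own.

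Next in order, Mrpl43 scored 133, Mrpl57 scored 116, Mrps7 scored 108, Mrpl2 scored 105 and Mrps34 scored 101. The Mrpl2 protein lies close to the peptidyl transferase centre and that of Mrps7 in the head of the small subunit, while the proteins of Mrpl43, Mrpl57 and Mrps34 have no bacterial relative. All of these 5 share their summits with a neighbouring gene. Mrps36, now known to belong with the oxoglutarate dehydrogenase complex rather than the ribosome, scored 93.5 at a summit of its own. Mrpl51, Mrpl48, Mrpl18, Mrpl52, Mrpl38 and Mrpl20 filled the first 15 places, with scores between 82.3 and 93.2.

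At the low end, Mrpl45, whose protein ties the ribosome to the inner membrane, scored 6.05 and Mrpl1, the protein of the L1 stalk, scored 6.26. Both had a single summit of their own, and they stood at percentiles 2.35 and 2.64 of all marked genes. Mrpl16 scored 11.9, Mrps12, whose protein lies at the decoding centre, scored 15.7, and Mrpl39 scored 16.8. The lowest and the highest genes of the group therefore differ in rank across nearly the whole list of marked genes.

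**Figure D2:**
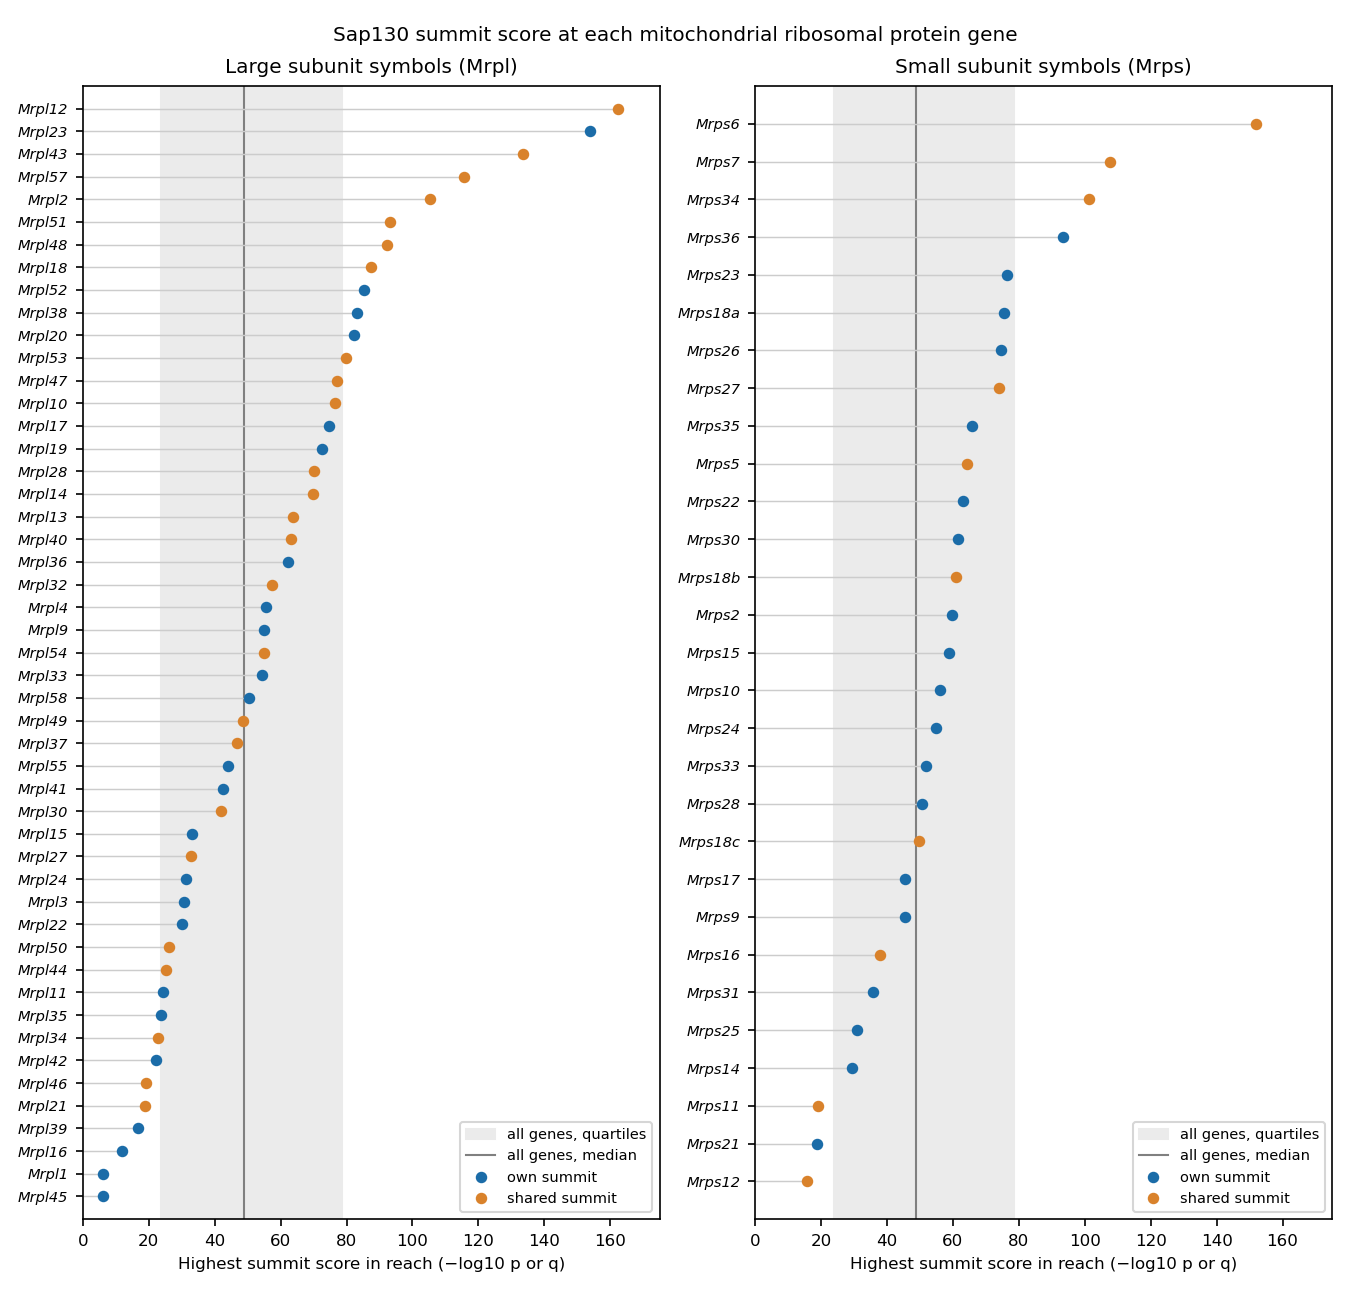
Highest Sap130 summit score in reach of each gene (−log10 of p or q), large subunit symbols on the left and small subunit symbols on the right, coloured by whether the gene has a summit in reach of no other protein-coding gene. The grey line and band are the median (48.9) and quartiles (23.9 and 78.6) of all marked protein-coding genes; scores run from 6.05 at Mrpl45 to 162 at Mrpl12.

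By subunit, both were fully marked: 49 of 49 large subunit genes (exact 95% interval 92.8% to 100%) and 29 of 29 small subunit genes (88.1% to 100%). Scores had a median of 54.8 in the large subunit (quartiles 30.1 and 77.2) and 58.9 in the small subunit (quartiles 45.3 and 74.0), a difference of -4.09 that is small beside the spread among genes. The exact 95% intervals of the medians were 41.8 to 69.9 and 45.5 to 65.7. The large subunit had both more high and more low genes, with 12 of 49 above the upper quartile of all marked genes and 9 below the lower one, against 4 and 3 of 29 in the small subunit. The proteins of Mrps30 (score 61.4) and Mrps18a (75.5) sit in the large subunit despite their symbols. With both moved there the medians were 55.1 in the large and 56.0 in the small subunit, a difference of -0.991. The order of the subunits turned round when only the higher-scoring part of the summits was used, to a difference of 10.2 with the 7442 summits of highest score.

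The genes of proteins classed as mitochondria-specific had a median score of 63.0 (n = 33), against 54.5 for those classed as having a bacterial relative (n = 45). Here Mrpl47 was counted as mitochondria-specific and Mrpl55 as having a bacterial relative, and both placements are in doubt. Medians with these 2 genes exchanged were not computed, so all class medians given here hold for this placing of them only. By symbol, within the small subunit, the medians were 65.7 for the mitochondria-specific (n = 13) and 50.2 for the bacterial class (n = 16). Within the large subunit they were 52.7 (n = 20) and 55.1 (n = 29), the other way round. These counts by symbol put Mrps36, Mrps30 and Mrps18a in the mitochondria-specific small subunit class. Without Mrps36 and with the other 2 in the large subunit, the medians were 64.4 (n = 10) and 50.2 (n = 16) in the small subunit and 58.1 (n = 22) and 55.1 (n = 29) in the large subunit. Mrps18a and Mrps18b are themselves relatives of a bacterial protein, and with them in the bacterial class the large subunit medians were 54.8 (n = 21) and 55.3 (n = 30). The order in the large subunit thus depends on where a few genes are placed. By symbol, the interval of the mitochondria-specific median, 48.5 to 76.5, overlaps that of the bacterial class, 37.8 to 59.7.

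A fixed list of 11 genes of the group linked to disease in people, which need not be complete, was looked at. All 11 were marked, as every gene of the group was, with a median score of 59.7 and a range of 25.2 to 162. Variants of MRPL3, MRPL44 and MRPS22 are linked to cardiomyopathy in people. In these mouse hearts Mrpl3 scored 30.7 and Mrpl44 scored 25.2, both below the median of all marked genes, and Mrps22 scored 63.1. All 3 had a single summit between 180 and 187 bp downstream of the listed start.

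Across the group the summits sat at transcript starts, mostly a little downstream. The summit of highest score lay a median of 151 bp downstream of the listed start over 69 genes, against 179 bp over the 9128 protein-coding genes with a summit at a start. It lay between 100 and 300 bp downstream at 46 of the 69 genes (66.7%), against 60.1% of all such genes, and within 50 bp of the start at 2. It was downstream at 52 of 69 (75.4%), against 82.6% of all such genes. The largest distance was 895 bp at Mrpl20, whose protein binds ribosomal RNA early in assembly in bacteria. The 10 genes longer than 20000 bp had 1 summit each, while 15 of the shorter ones had 2 or 3.

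**Figure D3:**
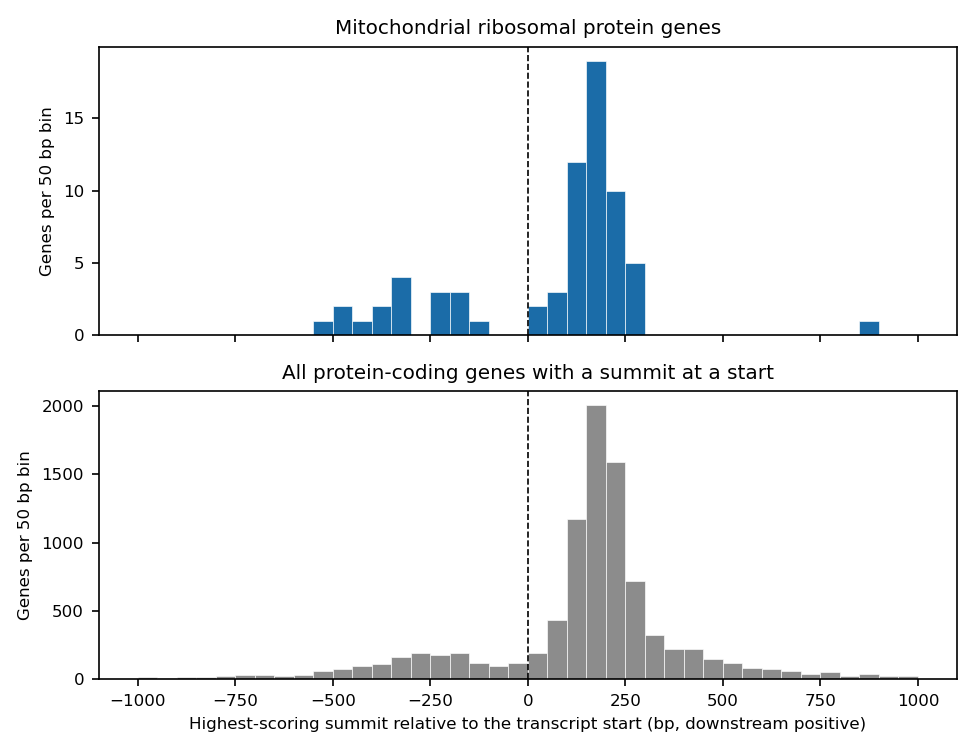
Position of the highest-scoring summit relative to the listed transcript start (bp, downstream positive, 50 bp bins), for 69 mitochondrial ribosomal protein genes above and 9128 protein-coding genes below; bars count genes. Most genes of both sets fall between 100 and 300 bp downstream, and a smaller set falls upstream.

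Most genes had 1 summit in reach: 63 had 1, 14 had 2 and Mrps18b had 3. The group reached 93 distinct summits in all. Of the summits in reach of the 69 genes with a listed start, 4 lay away from it. The one at Mrpl2 lay 385 bp downstream of the start of Cul7, a ubiquitin ligase scaffold, and the one at Mrpl36 lay 136 bp downstream of the start of Ndufs6, a subunit of respiratory complex I. The one at Mrps18b lay 143 bp downstream of the start of Atat1, a tubulin acetyltransferase. The last, at Mrpl58, the gene of a peptidyl-tRNA hydrolase built into the ribosome, scored 5.33 and lay in reach of no other gene.

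A gene has a summit of its own when at least 1 summit in its reach is in reach of no other protein-coding gene. By that rule 43 of the 78 genes had their own (55.1%, exact 95% interval 43.4% to 66.4%), against 77.1% of all marked protein-coding genes, and 35 shared every summit. The share with their own was 24 of 49 in the large subunit (49.0%) and 19 of 29 in the small subunit (65.5%), with overlapping intervals of 34.4% to 63.7% and 45.7% to 82.1%. Genes with their own summit had a median score of 51.8 (quartiles 30.9 and 64.4) and those that shared had 63.9 (quartiles 39.8 and 89.8), a difference of -12.1. The exact 95% intervals of these medians, 35.9 to 59.7 and 48.5 to 77.2, overlap. Over all marked protein-coding genes the medians ran the same way, 45.6 for own and 59.2 for shared. Of the 15 highest-scoring genes of the group, those with a summit of their own were Mrpl23, Mrps36, Mrpl52, Mrpl38 and Mrpl20.

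The position of the best summit differed between these classes. The best summit lay downstream of the start at 35 of 37 genes with their own (median 178 bp), against 17 of 32 that shared (median 25.5 bp). The upstream summits of sharing genes lay mostly downstream of the neighbour's start, as the map of shared starts shows. Of the 35 sharing genes, 26 shared the best summit with the start of a neighbour and 4 with a neighbour that has no listed start. The other 5 shared it with a neighbour whose listed start lay more than 1000 bp from the summit. Among these, the summits of Mrpl34 and Mrpl54 lay just outside the 5′ boundary of Abhd8 and Apba3.

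In 24 of those 26 the neighbour is read from the opposite strand, and the starts lie a median of 129.5 bp apart (range 32 to 756 bp). Mrpl43 and Twnk, the mitochondrial DNA helicase gene, start 116 bp apart, and their summit of 133 lay 159 bp downstream of the Mrpl43 start. Mrpl57 and the kinetochore gene Ska3 start 76 bp apart, and the summit of 116 lay 198 bp downstream of the Mrpl57 start. At Mrps7 the side was the other one: its summit of 108 lay 476 bp upstream of its start and 252 bp downstream of that of Gga3, a Golgi adaptor gene. Mrpl2 and the kinesin gene Klc4 start 141 bp apart, and the summit of 105 lay on the Mrpl2 side. In all, the best summit lay downstream of the ribosomal protein gene's start in 9 of the 24 and downstream of the neighbour's start in 15. A background exists for a nearly identical set, the 24 genes with an opposite-strand start within 1000 bp upstream. Their best summit was downstream of their own start in 37.5%, against 50.3% of the 1391 such marked protein-coding genes. This difference was not tested. One summit, at Mrpl48 and Rab6a, lay downstream of both starts, and one, at Mrpl51 and the condensin gene Ncapd2, lay between them.

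A few neighbours chosen after their values were seen are given for their known roles. Mrpl47 shares a summit of 77.2 with Ndufb5, a subunit of respiratory complex I, Mrps12 one of 15.7 with Sars2, the mitochondrial seryl-tRNA synthetase, and Mrpl49 one of 48.5 with Fau, which encodes a cytoplasmic ribosomal protein. Roles were not counted over all the pairs. Mrpl46 and Mrps11, of the large and the small subunit, start 42 bp apart on opposite strands. Their only summit scored 19.1 and lay 183 bp downstream of the Mrpl46 start. The Mrps11 promoter printed above covers both starts.

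**Figure D4:**
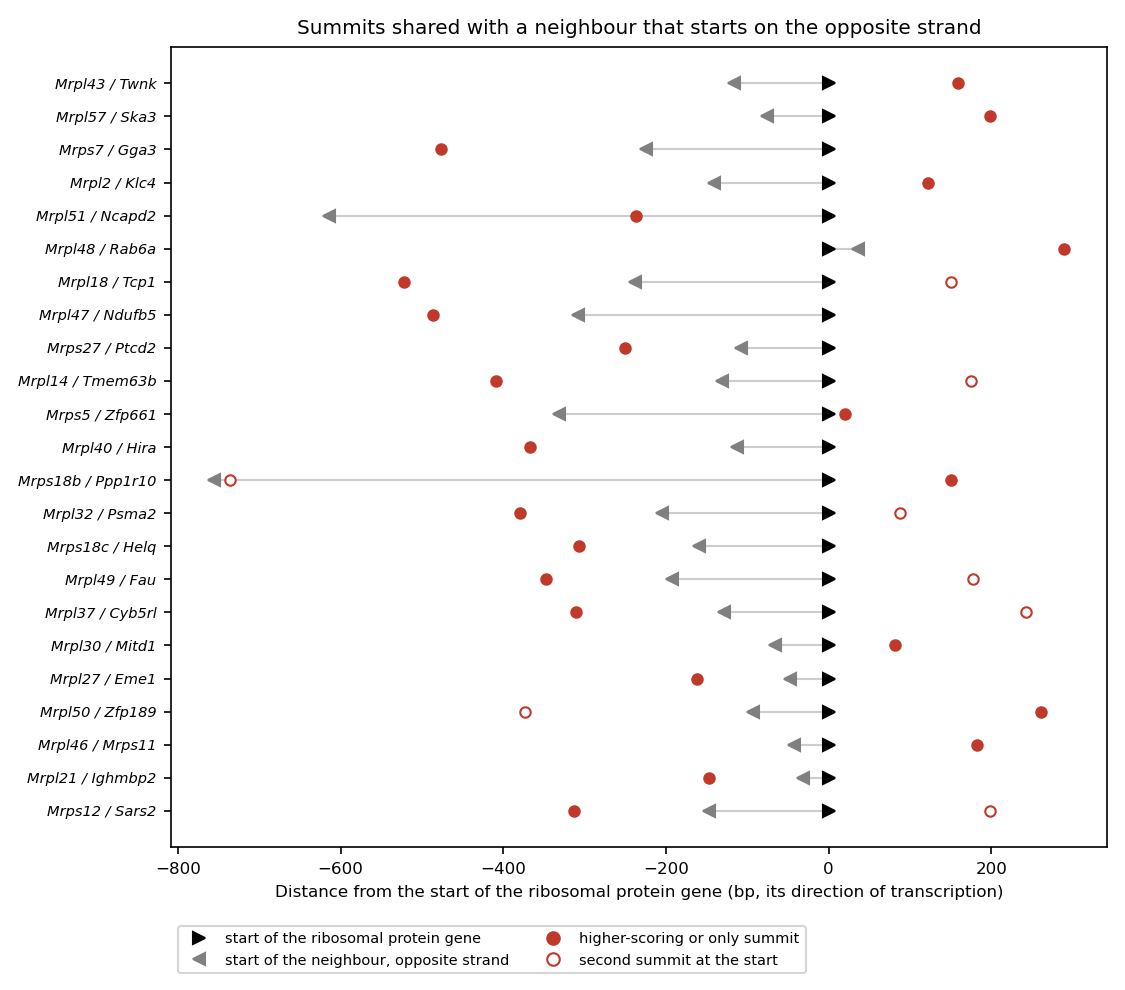
Transcript starts and summits of the 23 pairs in which a mitochondrial ribosomal protein gene and a neighbour start on opposite strands and share a summit (bp from the ribosomal protein gene's start, pairs ordered by score). Black arrows mark that start, grey arrows the neighbour's start, filled circles the only or higher-scoring summit and open circles a second summit at the start; most circles lie downstream of 1 of the starts rather than between them.

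Starts of this paired kind were frequent in the group. A protein-coding gene started on the opposite strand within 1000 bp upstream of 24 of the 69 genes (34.8%, exact 95% interval 23.7% to 47.2%), against 8.48% of all protein-coding genes with a listed start and 15.2% of those with a summit at the start. Of these 24, 23 shared their best summit with that neighbour, and Mrpl41 had one of its own. Among all genes with such a neighbour 93.8% had a summit at the start, against 48.3% of those without one. The part of this arrangement in the marking of the group was not tested, and since every gene of the group with a listed start was marked, no split of the group can show it. At the 45 genes of the group without such a neighbour the best summit was downstream of the start in 43 of 45 (95.6%), against 88.4% of all such marked genes. Scores had a median of 59.2 with and 54.5 without such a neighbour in the group, against 66.6 and 46.8 over all protein-coding genes.

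At 10 of the 69 genes with a listed start a pair of summits flanked the start, 449 to 887 bp apart, one upstream and one downstream. How often other protein-coding genes have such a pair was not counted, so it cannot be called a trait of the group. Of these 10, 9 have a neighbour that starts on the opposite strand within 1000 bp upstream. The upstream summit scored higher at 6 genes and the downstream one at 4. At Mrpl14 the upstream summit, on the side of Tmem63b, scored 69.9 and the downstream one 54.0. At Mrpl18, beside the chaperonin gene Tcp1, they scored 87.3 and 23.4. At Mrpl32, beside the proteasome gene Psma2, they scored 57.4 and 35.0. The order was the other way at Mrpl41, with 31.6 upstream and 42.6 downstream, at Mrpl50, with 10.6 and 26.2, and at Mrps18b, with 45.9 and 60.9. It was so too at Mrps23, with 18.1 and 76.5 and no protein-coding neighbour in reach.

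Promoters of the group were rich in CpG. The ratio of observed to expected CpG over the 300 bases had a median of 0.818 in the group, against 0.577 over all protein-coding promoters and 0.805 over those with a summit at the start. A ratio of at least 0.6 was found in 64 of 69 promoters of the group (92.8%), against 48.3% of all promoters and 82.0% of those with a summit at the start. Summits moved with this measure over the whole genome: 88.6% of the protein-coding genes with such a promoter had a summit at the start, against 18.1% of the others. The 5 genes of the group with a lower ratio were Mrpl20, Mrpl34, Mrpl44, Mrps9 and Mrps18a, with scores from 22.8 at Mrpl34 to 82.3 at Mrpl20. The part of CpG content in the marking of the group was not tested. G+C content had a median of 58.3% in the group, against 62.3% in promoters with a summit at the start.

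Of the 10 motifs, ETS and YY1 matches were the ones whose share in the group lay above that of start-marked promoters with an interval clear of it. The ETS site CCGGAAG, bound by a large family of activators, was found in 25 of 69 promoters (36.2%, exact 95% interval 25% to 48.7%), against 19.7% of start-marked promoters and 11.9% of all promoters. The YY1 core AAGATGG was found in 13 (18.8%, interval 10.4% to 30.1%), against 7.52% and 6.37%. The NRF1 core GCATGCG, of a factor known to drive nuclear genes for mitochondrial proteins, was found in 8 (11.6%, interval 5.14% to 21.6%), against 7.41% and 4.49%; its interval takes in the share of start-marked promoters. At least 1 of the 3 was found in 53.6% of the group, 31.1% of start-marked promoters and 20.7% of all promoters. A match is a run of letters and not a measured site, and these shares were not tested. The intervals were not adjusted for the 10 motifs searched. Start-marked promoters include those of the group, and their G+C content was higher, as given above.

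Among the remaining motifs, the Sp box was less frequent in the group than in start-marked promoters, and for the others the group's interval took in their share. The Sp family box GGGCGG was found in 49.3% of the group, 70.2% of start-marked promoters and 46.3% of all promoters. The CCAAT box was at 39.1%, 38.7% and 39.0% in the same order. The TATA box TATAAA was at 5.8% in the group, 5.84% of start-marked promoters and 13.3% of all promoters. The E-box CACGTG was at 7.25%, 10.9% and 7.9%, the CRE core TGACGTC at 5.8%, 6.19% and 4.0%, the ZNF143 core ACTACAA at 7.25%, 4.57% and 3.84%, and the E2F site TTTCCCGC at 1.45%, 2.37% and 1.46%. Of these cores, those for NRF1 and CRE overlap their own reverse complement and the E-box equals its own, so 1 stretch can match on both strands, and neighbouring matches can share bases, as the Sp and ETS matches of Mrpl17 do.

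**Figure D5:**
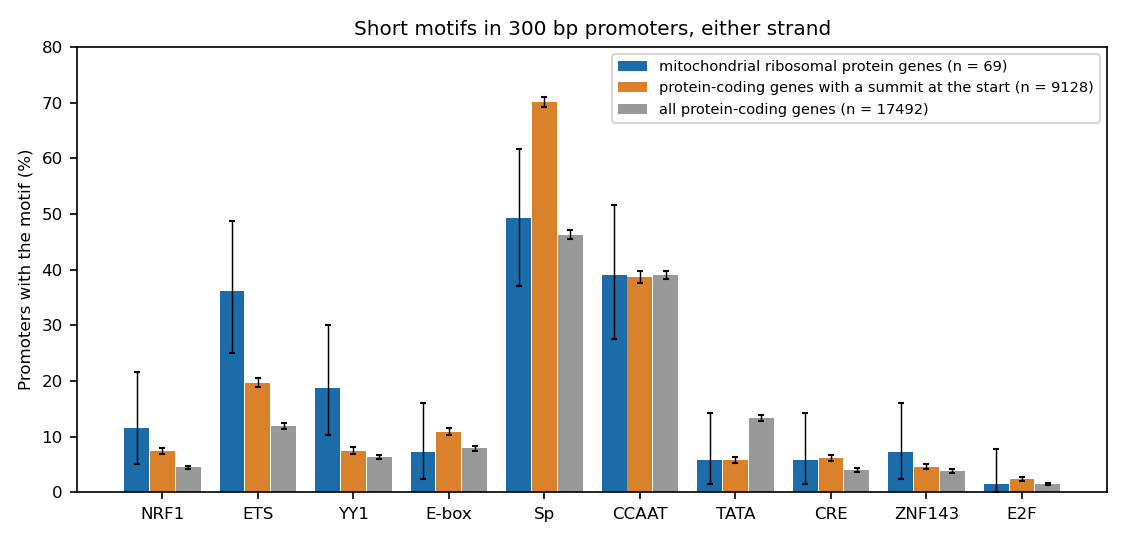
Share of promoters of 300 bases with each motif on either strand (percent, bars are shares and lines exact 95% intervals), for mitochondrial ribosomal protein genes, protein-coding genes with a summit at the start and all protein-coding genes. ETS matches were found in 36.2% of the group against 19.7% of start-marked promoters, and Sp matches in 49.3% against 70.2%.

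Some of the matches lay at like places. The YY1 core lay on the gene's own strand between bases 1 and 44 after the start in 8 promoters of the group (11.6%), against 2.83% of start-marked and 1.73% of all promoters. In the promoters printed above it begins at base 12 in Mrps18a, 15 in Mrps27 and 19 in Mrps7, counted from 1 at the listed start. ETS matches lay between 60 bases before and 44 after the start in 30.4%, against 13.2% and 7.85%. Both stretches, and the strand for YY1, were chosen after the matches were seen. Mrpl22 has an ETS match and an NRF1 match within 53 bases before its start, and Mrpl32 has 3 NRF1 stretches within 86 bases before its start. None of the motifs was found in 6 promoters, those of Mrpl12, Mrpl30, Mrpl44, Mrpl45, Mrpl47 and Mrps2, whose scores span the whole range of the group. At 50 of the 69 genes the best summit lay beyond the 50 bases after the start that the promoter covers, so the bases under most summits were not searched.

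The other genes of mitochondrial translation were marked nearly as often. From a list of 43, 42 had a summit (97.7%, exact 95% interval 87.7% to 99.9%), with a median score of 53.9. All 5 ribosomal proteins of other names were marked, among them Dap3 (49.6) and Ptcd3 (63.1), as were all 10 translation factors, among them the elongation factors Tufm (61.8) and Tsfm (86.4). All 16 assembly factors and all 4 genes for messenger RNA binding or membrane insertion were marked too. Of the 8 genes for modification of ribosomal RNA, 7 were marked, and Trmt2b had no summit within 31265 bp. The 5 highest scores were 186 at the assembly factor Rcc1l, 132 at the methyltransferase Mrm1, 118 at Slirp, which stabilises mitochondrial messenger RNAs, 104 at the GTPase Noa1 and 104 at Mtfmt, which formylates the initiator tRNA.

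Set beside related families, the group shared its high marking and not the highest scores. Cytoplasmic ribosomal protein genes had a summit in 75 of 76 cases (98.7%), with a median score of 83.2 (quartiles 54.4 and 118). Respiratory chain and ATP synthase genes had one in 79 of 88 (89.8%), with a median of 51.3 (quartiles 32.1 and 75.1). The share of marked genes with a summit of their own was 55.1% in the mitochondrial ribosome, 77.3% in the cytoplasmic one and 59.5% in the respiratory chain.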

How the data were processed

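Per the submitters' processing notes, reads were handled with Bowtie 1.1.2 and MACS2 2.1.0.20140616 on mouse build GRCm38 (mm10); for the settings and threshold, the sources used here give nothing, and read depth is unknown. The authors deposited 14886 summits of 1 base with a score on a −log10 scale of a p-value or q-value, and which of these it is was not settled. Scores grow with depth and enrichment alike, and so were used only to rank within the list. The 14881 nuclear summits were joined to the RefSeq table of build GRCm38.p6 (21779 protein-coding genes) with a reach of 1000 bp. Listed starts came from the RefSeq promoter table, which holds 69 of the 78 genes; Mrpl4, Mrpl13, Mrpl15, Mrpl19, Mrpl38, Mrpl54, Mrps28, Mrps34 and Mrps35 are not in it. Shares carry exact (Clopper-Pearson) 95% intervals, which cover the counting of genes only. Intervals of medians come from the ranks of the genes and have the same limit. Named genes were the 15 highest and 5 lowest scores, those with several summits, those linked to disease, the highest shared pairs and genes whose symbol and subunit differ. The members, lists and rules were chosen with earlier results of these data known. The assignment was tried on simulated summits planted at isolated genes, and 200 of 200 went to their gene alone. Close pairs of genes were not simulated, so the rule for shared summits was not tried in this way. Python 3.11.15, pandas 2.3.3, numpy 2.4.6, scipy 1.17.1 and matplotlib 3.10.9 were used.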

Additional observations from a re-analysis of the deposited data

How the results depend on the processing

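With 1 ChIP and 1 input library, no replicate could be left out and no paired analysis was possible. Windows of 500 and 2500 bp, and merging of summits within 500 bp, left all 78 genes marked. The share with a boundary summit was 98.7% at 2500 bp, against 52.6% of all genes. That all 69 genes with a listed start had a summit near it was counted at 1000 bp only. It would not hold at 500 bp, since the only summit of Mrpl20 lay 895 bp from its start. With the 7442 summits of highest score, 71.8% of the group had a summit, against 36.0% of all protein-coding genes, and 65.4% had one at a boundary, against 31.6%. The share was then 65.3% in the large and 82.8% in the small subunit, the median score 64.0, and the large minus small difference of medians 10.2. With the 3728 highest, 34.6% had a summit, against 19.5% of all genes, and 32.1% had one at a boundary, against 17.3%. The share was then 36.7% in the large and 31.0% in the small subunit, the median 83.3, the difference 7.78, and 40.7% of marked genes of the group had a summit of their own, against 68.3% of all marked genes. Higher medians follow from keeping only high scores. The own minus shared difference stayed between -16.2 and -7.34 in the settings tried, with overlapping intervals of the medians by the rule as reported, and the large minus small difference was negative in the rest. Counting neighbours of any type left 48.7% with a summit of their own. The share over all protein-coding genes was not computed under that rule, so this value has no background. Chosen after seeing the data were listed starts, leaving out Mrps36, other classes for a few genes, and a rule by starts alone. By that rule 65.2% of the 69 genes with a listed start had no opposite-strand start within 1000 bp upstream, against 91.5% of all such genes; it ignores summits, so Mrpl41 counts as sharing. Depth is unknown, so how many weak sites it hides is not known.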

Other observations

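The mitochondrial genome itself held 5 summits in the list, all of low score (3.56 to 7.44). They lay in mt-Rnr1, the gene of the small ribosomal RNA on which the Mrps proteins assemble, in ND2, ND5 and ND6, and in no annotated gene. They entered no count above.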
